A study of Mus musculus with 15 samples.

Results

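The 47 genes described here encode parts of the primary cilium or regulate them. They are 14 genes of the transition zone, 2 of the ciliary membrane, 7 of the BBSome, 10 of intraflagellar transport complex B (IFT-B), 5 of complex A (IFT-A), 2 of dynein-2, 4 transcription factors, and 3 coiled-coil genes that include factors of motile cilia. They were found by symbol among the 53801 genes of the count table. The list was chosen with measured values of these libraries already known, namely the differences between the 3 groups, so every value of a member describes the list and is not independent evidence for its direction.

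Cultured primary adult neural stem cells (aNSCs) came from mice of the mixed strain C57BL6/J-129sv that were 2 months old and of both sexes. All carried Rosa26-CreERT2, a Cre recombinase driven by a ubiquitous promoter that enters the nucleus once 4-hydroxytamoxifen (4-OHT) binds it. Mice with the genotype Trrap Fl/+ had 1 floxed and 1 intact allele of Trrap, the scaffold of several histone acetyltransferase complexes, and their cells were sequenced without treatment (Fl/+ untreated, n = 5) and after treatment with 4-OHT (Fl/+ 4-OHT, n = 5, from the same 5 mice), for 5 days by the labels and for a shorter time followed by fresh medium by the methods. Cells of 5 other mice with both alleles floxed, Trrap Fl/Fl, received 4-OHT only (Fl/Fl 4-OHT, n = 5). Untreated Fl/Fl cells were not analysed here, and Fl/+ cells can lose 1 Trrap allele under 4-OHT. The study asked how loss of Trrap changes transcription in these cells. The Fl/Fl 4-OHT libraries were therefore compared with the Fl/+ 4-OHT libraries for Trrap deletion. Fl/+ 4-OHT was compared with Fl/+ untreated, called 4-OHT below, and Fl/Fl 4-OHT with Fl/+ untreated for both together. In the comparison called 4-OHT, the drug, Cre activity and loss of 1 Trrap allele cannot be told apart.

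The primary cilium is a single microtubule-based antenna that grows from the mother centriole when a cell leaves the cycle, and it is taken apart again before division. The transition zone at its base is a gate for proteins, IFT-B carries cargo to the tip with kinesin-2, IFT-A returns it with dynein-2, and the BBSome is a coat that moves membrane receptors. Neural stem cells of the adult brain carry a primary cilium that serves Hedgehog signalling, and many ciliary genes are controlled by RFX transcription factors, which bind a promoter element called the X-box.

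Promoter sequences are shown first for 8 members that passed the test after Trrap deletion and whose window holds the RFX element or its core motif. They were picked for holding it, so the set says nothing about how often changed members do, and Ift122, without a window, and Ccdc39, with neither motif, changed by more than Bbs5, the last shown. The sequences are RefSeq sequences on GRCm38.p6 (250 bases before to 50 after the start of transcription), of which 41 of the 47 members had a window. Capitals mark the X-box where the window holds one and otherwise its core motif GTTGCC, which can itself lie inside an X-box. Both strands were searched, and positions are counted from the start at 1 with no position 0. The genes are in order of the size of their change after Trrap deletion.
Ccdc13, chr9:121839462-121839591, minus strand, core motif from -33: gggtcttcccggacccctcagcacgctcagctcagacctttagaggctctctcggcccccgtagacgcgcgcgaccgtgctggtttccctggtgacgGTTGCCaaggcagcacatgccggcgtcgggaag
B9d2, chr7:25680788-25680817, plus strand, X-box from 17: aacctgctGTTGCCCCAGCAACagtcgggg
Nphp4, chr4:152478131-152478160, plus strand, core motif from 2: tggtgcatcccgGTTGCCagctgatgttgg
Rfx2, chr17:56831009-56831138, minus strand, core motif from -116: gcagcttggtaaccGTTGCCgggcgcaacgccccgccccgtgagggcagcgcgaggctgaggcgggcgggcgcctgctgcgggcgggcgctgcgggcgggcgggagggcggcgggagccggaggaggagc
Tctn2, chr5:124598619-124598748, plus strand, X-box from -62: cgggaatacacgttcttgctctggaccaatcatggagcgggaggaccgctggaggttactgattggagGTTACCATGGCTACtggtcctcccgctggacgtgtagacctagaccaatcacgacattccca
Bbs1, chr19:4906605-4906634, minus strand, X-box from 2: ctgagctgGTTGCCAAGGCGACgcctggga
Tctn1, chr5:122264411-122264440, minus strand, X-box from 37: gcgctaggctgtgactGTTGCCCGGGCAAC
Bbs5, chr2:69647191-69647220, plus strand, core motif from 43: gatgtcgtgacaaagccggcgcGTTGCCtt

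An X-box was found in 6 of the 41 members with a window (14.6%), against 215 of all 27025 genes in the promoter table (0.796%). The 6 were Tctn1, Tctn2, B9d2, Ahi1, Bbs1 and Ift57. The core motif was in 23 of the 41 (56.1%), against 14.1% of all genes. The GC box GGGCGG, a common promoter element searched for comparison, was in 25 of the 41 (61%), against 38.2% of all genes. The X-boxes began between position -87, in Ift57, and position 37, in Tctn1. A match of letters is a description and does not show that a factor binds there.

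Each library held 25720034 to 32187097 counts assigned to genes, and 20978 to 22088 genes had at least 1 count. Trrap, counted over the whole gene and not over the deleted part alone, lay between 179 and 214 counts-per-million units (CPM) in Fl/+ untreated, between 138 and 204 CPM in Fl/+ 4-OHT and between 82.8 and 142 CPM in Fl/Fl 4-OHT. It was lower after Trrap deletion, with a log2 fold change of -0.64 ± 0.16 (SE; adjusted p = 0.0115, edgeR's quasi-likelihood test). After 4-OHT in Fl/+ cells its log2 fold change was -0.21 ± 0.11 (adjusted p = 0.234, edgeR). The library of Fl/Fl mouse 29 was the highest of its group and overlapped the Fl/+ 4-OHT libraries. The library of Fl/Fl mouse 39, labelled female, held 0.313 CPM of Xist and 54.0 CPM of the Y-linked gene Ddx3y, which goes against its label. The Fl/+ 4-OHT library of mouse 36, labelled male, held 74.7 CPM of Xist beside 52.9 CPM of Ddx3y, while its untreated library held 5.89 CPM of Xist. Neural stem cell markers were detected in every library, but Sox2 and Fabp7 were lower after Trrap deletion. Sox2 lay between 285 and 509 CPM in Fl/+ untreated, 258 and 321 CPM in Fl/+ 4-OHT and 200.1 and 280.2 CPM in Fl/Fl 4-OHT (-0.33 ± 0.10, adjusted p = 0.0268, edgeR). Fabp7 lay between 2477 and 4549, 2294 and 3467, and 1515 and 2215 CPM in the same order, with no overlap between the 4-OHT groups (-0.61 ± 0.13, adjusted p = 0.00552, edgeR). Nes, Vim, Msi1 and Egfr did not pass after Trrap deletion. The part of these differences in those of the cilium genes was not tested. The 5 microglial markers summed to at most 2.01 CPM.

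After Trrap deletion 22 of the 47 members were higher, 2 were lower and 23 did not pass the test, in edgeR's quasi-likelihood test with adjustment over all 15036 genes tested. Across those genes 16.8% were higher and 15% were lower. All 47 members passed the filter on low counts in each comparison. The median log2 fold change of the members was 0.34, beside 0.02 for all genes tested. The 22 were 7 transition zone genes, 4 BBSome genes, 5 IFT-B genes, 2 IFT-A genes, 1 dynein-2 gene, 1 transcription factor and 2 coiled-coil genes. The 2 lower members were Bbs9 and Rfx3. In 17 members all 5 Fl/Fl 4-OHT libraries lay above all 5 Fl/+ 4-OHT libraries, and in 1 member, Bbs9, all 5 lay below, beside 11.2% and 11.4% of all genes. The list was drawn up from this comparison, and nothing is read from these shares. In the plot of all members by library, the Fl/Fl columns are redder than both Fl/+ blocks for most genes, and the median over members relative to untreated lay between 0.33 and 0.45 (log2) in the Fl/Fl libraries, 0.01 and 0.17 in Fl/+ 4-OHT and -0.09 and 0.06 in Fl/+ untreated. In bulk RNA, more cells with a given transcript and more transcript per cell cannot be told apart.

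**Figure D1:**
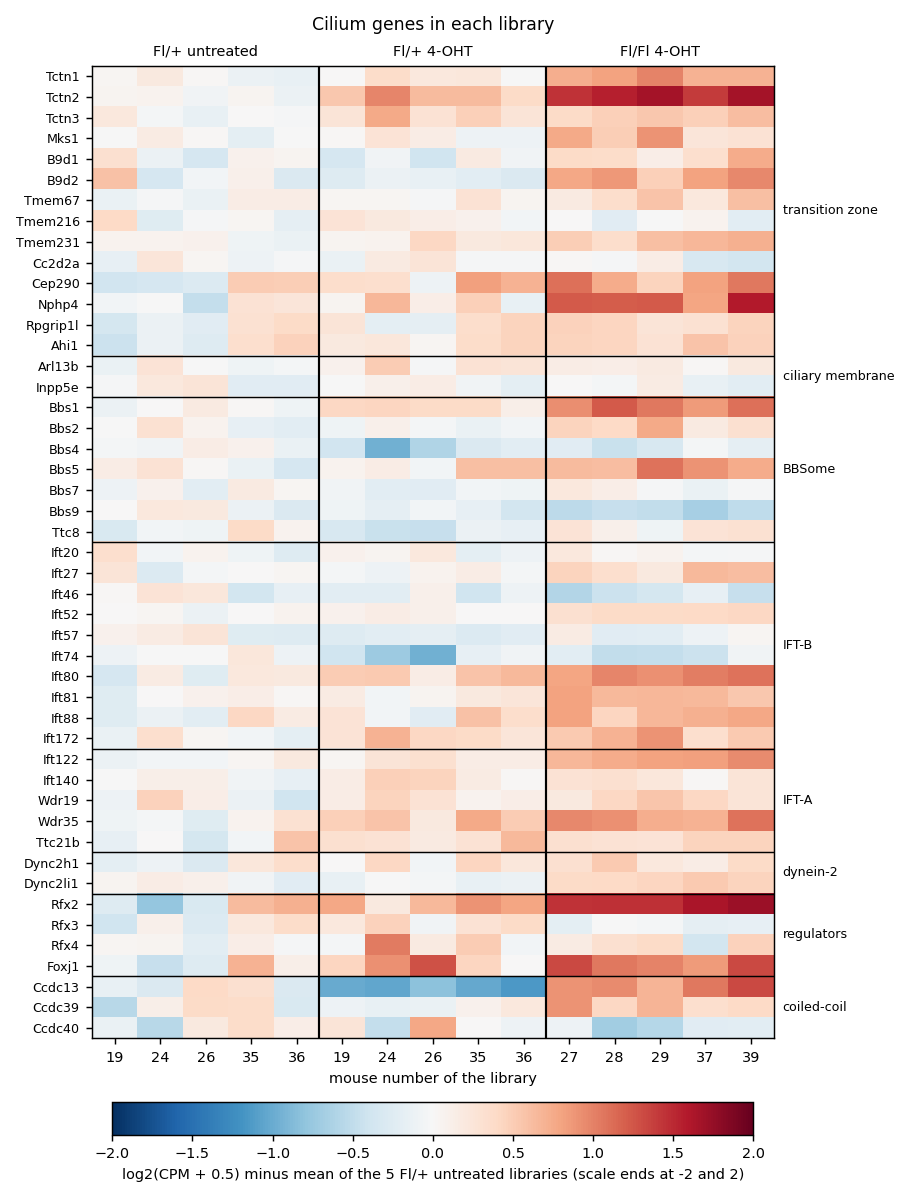
Level of each of the 47 cilium genes (rows, by class) in each of the 15 libraries (columns, by group and mouse number), as log2(CPM + 0.5) minus the mean of the 5 Fl/+ untreated libraries. Red is higher and blue is lower, Rfx2, Tctn2 and Nphp4 are the most red rows in Fl/Fl 4-OHT, and Ccdc13 is blue in all 5 Fl/+ 4-OHT libraries and red in all 5 Fl/Fl 4-OHT libraries.

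Leaving out any 1 library of this comparison gave 19 to 22 higher members and 2 or 3 lower ones, and 19 of the 22 were called in every such fit. Of the other 3, Bbs5 and Tmem231 each lost the call in 6 of the 10 fits and Ift88 in 8, and all 3 lost it with no filter on low counts. Without Fl/Fl 29 there were 19 higher members, without Fl/Fl 39 there were 19, and without both there were 17, all among the 22. Without the Fl/+ 4-OHT library of mouse 36 there were 21. Over all genes these fits, in order, called 4290 of 15164, 4072 of 15254, 3066 of 15347 and 4270 of 15295, against 4773 of 15036 in the main fit. Bbs9 and Rfx3 stayed lower in each of these fits.

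The largest change belonged to Ccdc13 (chr9:121797627-121839461), which encodes a coiled-coil protein of centriolar satellites that cells need to form cilia. Its level was 3.65, 3.55, 4.19, 3.57 and 3.24 CPM in the Fl/+ 4-OHT libraries of mice 19, 24, 26, 35 and 36, and 14.9, 15.4, 12.8, 16.8 and 20.3 CPM in the Fl/Fl 4-OHT libraries of mice 27, 28, 29, 37 and 39. Every other series of 5 values below is in these orders of mice. The groups were far apart and the Fl/+ 4-OHT values lay close together. The fold was 4.45 (log2 fold change 2.15 ± 0.14, adjusted p = 1.76e-05, edgeR). In the untreated libraries the level was 6.98, 6.31, 10.5, 9.93 and 6.30 CPM, between the other groups and overlapping neither.

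Of the 14 transition zone genes 7 were higher, with a class median of 0.41 (log2). They encode the tectonic proteins (Tctn1 to Tctn3), the B9-domain proteins (Mks1, B9d1, B9d2), membrane proteins (Tmem67, Tmem216, Tmem231), and scaffold proteins such as Cep290, Nphp4, Rpgrip1l, Cc2d2a and Ahi1. B9d2, whose X-box is printed above, was at 11.6, 12.8, 12.6, 12.0 and 11.2 CPM in Fl/+ 4-OHT and 24.1, 25.7, 19.6, 24.7 and 27.7 CPM in Fl/Fl 4-OHT. All Fl/Fl values were above all Fl/+ values, with the library of mouse 29 the lowest of its group, and the fold was 2.04 (log2 fold change 1.03 ± 0.10, adjusted p = 0.000103, edgeR). Nphp4, a scaffold of the nephronophthisis module, was at 18.0, 27.8, 19.1, 24.3 and 15.7 CPM against 41.1, 41.0, 41.1, 30.3 and 53.0 CPM. Its groups did not overlap either, although mice 37 and 39 differed widely, and the fold was 1.99 (0.99 ± 0.18, adjusted p = 0.00213, edgeR).

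Tctn2 (chr5:124598749-124627738) was at 21.0, 21.3, 19.2, 21.1 and 18.7 CPM in Fl/+ untreated, 29.7, 40.1, 31.6, 31.7 and 26.7 CPM in Fl/+ 4-OHT and 55.6, 60.3, 65.3, 54.4 and 65.1 CPM in Fl/Fl 4-OHT. The 3 groups formed 3 steps without overlap. Tctn2 was 1.90-fold higher after Trrap deletion (0.93 ± 0.11, adjusted p = 0.000246, edgeR) and 1.58-fold higher after 4-OHT (0.66 ± 0.11, adjusted p = 0.00431, edgeR). The 2 comparisons share the Fl/+ 4-OHT libraries. Of its relatives, Tctn1 was higher after Trrap deletion (0.64 ± 0.10, adjusted p = 0.00111) with 0.17 after 4-OHT (adjusted p = 0.352, edgeR). Tctn3 had a log2 fold change of 0.09 ± 0.11 after Trrap deletion (adjusted p = 0.566) and was higher after 4-OHT (0.43 ± 0.13, adjusted p = 0.046, edgeR). The 3 genes were not tested against each other.

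B9d1 (0.56 ± 0.14), Mks1 (0.53 ± 0.15) and Tmem231 (0.40 ± 0.12) were the other higher transition zone genes, and the 5 libraries of each group overlapped for all 3. Cep290 (0.42 ± 0.18, adjusted p = 0.107) and Tmem67 (0.34 ± 0.13, adjusted p = 0.0606, edgeR) did not pass the test, nor did Rpgrip1l (0.24), Ahi1 (0.20), Cc2d2a (-0.14) and Tmem216 (-0.20). Both genes of the ciliary membrane were close to no difference. Arl13b, a GTPase used to mark cilia, was at 26.8, 35.8, 24.7, 30.6 and 30.2 CPM in Fl/+ 4-OHT and 27.8, 27.7, 28.5, 25.6 and 28.7 CPM in Fl/Fl 4-OHT. These ranges overlapped, and its log2 fold change was -0.08 ± 0.10 (adjusted p = 0.559, edgeR). Inpp5e, a lipid phosphatase kept in the cilium by Arl13b, had a log2 fold change of -0.03 ± 0.10.

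**Figure D2:**
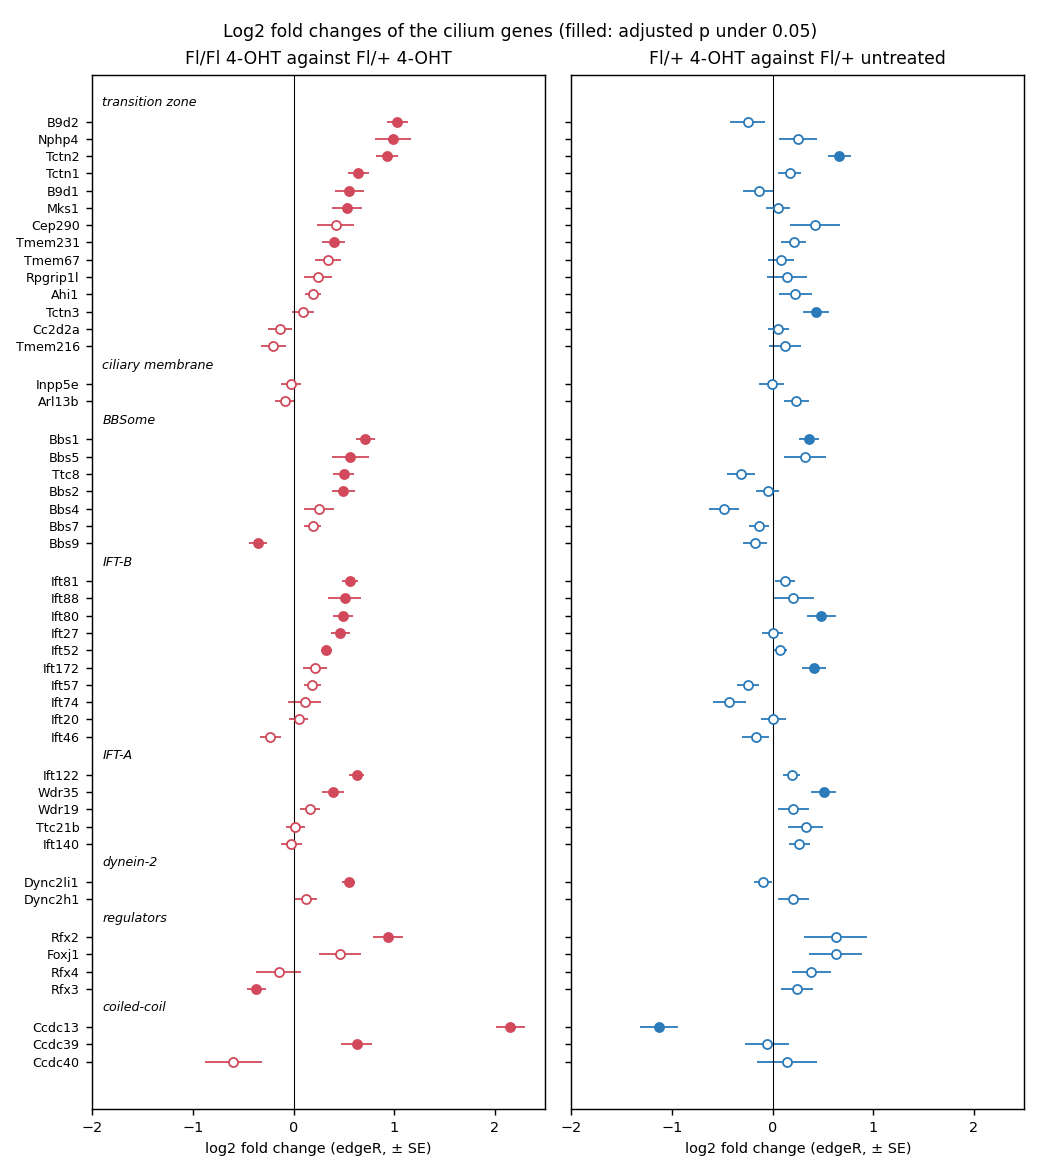
Log2 fold change with its standard error (edgeR) of each member after Trrap deletion (left) and after 4-OHT (right), with n = 5 per group, ordered by the left panel within each class. Filled points passed an adjusted p of 0.05: 24 points on the left, of which only Bbs9 and Rfx3 lie below 0, and 7 points on the right, of which only Ccdc13 lies below 0.

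In the BBSome, the receptor coat, 4 of 7 genes were higher and 1 was lower. Bbs1 was at 29.8, 30.1, 29.1, 29.1 and 24.2 CPM in Fl/+ 4-OHT and 42.9, 52.8, 46.7, 40.2 and 48.1 CPM in Fl/Fl 4-OHT. The groups were separate, with the Fl/+ library of mouse 36 below the 4 others, and the fold was 1.64 (0.71 ± 0.09, adjusted p = 0.00042, edgeR). Bbs5 (0.56 ± 0.18), Ttc8 (0.50 ± 0.11) and Bbs2 (0.50 ± 0.11) were higher as well. Bbs9, a core subunit of the same coat, moved the other way. It was at 24.4, 22.8, 24.9, 23.0 and 19.96 CPM in Fl/+ 4-OHT and 17.8, 18.8, 18.2, 16.2 and 18.1 CPM in Fl/Fl 4-OHT. All 5 Fl/Fl values were below all 5 Fl/+ values, and the log2 fold change was -0.36 ± 0.09 (adjusted p = 0.0115, edgeR). Bbs4 and Bbs7 had log2 fold changes of 0.25 and 0.19 and did not pass.

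Of the 10 IFT-B genes, Ift81, Ift88, Ift80, Ift27 and Ift52 were higher. Ift81, part of the tubulin-binding module, was at 27.3, 23.6, 25.6, 28.0 and 29.1 CPM in Fl/+ 4-OHT and 42.9, 38.8, 39.2, 38.5 and 35.7 CPM in Fl/Fl 4-OHT. The groups did not overlap (1.48-fold, 0.56 ± 0.08, adjusted p = 0.000638, edgeR). Its partner in that module, Ift74, had a log2 fold change of 0.11 ± 0.16. Ift52, a core subunit, had a smaller change with a narrow error (0.33 ± 0.06, adjusted p = 0.00197, edgeR), again without overlap. Ift20, which also works at the Golgi, had a log2 fold change of 0.05, Ift57 of 0.19, Ift172 of 0.21 and Ift46 of -0.23, and none of these passed.

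IFT-A and dynein-2 drive transport back to the base. Ift122, a core IFT-A subunit, was at 45.2, 52.3, 55.1, 48.7 and 48.7 CPM in Fl/+ 4-OHT and 69.4, 73.2, 77.1, 77.6 and 84.8 CPM in Fl/Fl 4-OHT. The groups were separate (1.54-fold, 0.63 ± 0.07, adjusted p = 0.000258, edgeR). Wdr35 was at 57.3, 61.1, 47.4, 69.5 and 58.5 CPM against 80.1, 77.5, 68.6, 67.1 and 87.8 CPM. Its highest Fl/+ library, mouse 35, exceeded the libraries of mice 29 and 37, and the log2 fold change was 0.39 ± 0.11 (adjusted p = 0.0164, edgeR). It lost the call without both Fl/Fl 29 and Fl/Fl 39, at 0.36. The other 3 subunits, Wdr19 (0.16), Ttc21b (0.02) and Ift140 (-0.02), did not pass. Dync2li1, the light intermediate chain of dynein-2, was at 28.0, 30.8, 30.3, 28.1 and 28.7 CPM in Fl/+ 4-OHT and 40.5, 41.1, 42.1, 45.2 and 42.3 CPM in Fl/Fl 4-OHT. Both groups were narrow and did not overlap (1.46-fold, 0.55 ± 0.06, adjusted p = 0.000243, edgeR). The motor's heavy chain gene, Dync2h1, had a log2 fold change of 0.12 ± 0.12.

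Of the 4 transcription factors, Rfx2 was higher, Rfx3 was lower, and Rfx4 and Foxj1 did not pass. Rfx2 (chr17:56775897-56831013), an RFX factor of ciliated cells, was at 6.56, 4.24, 6.004, 7.25 and 6.63 CPM in Fl/+ 4-OHT and 10.8, 10.9, 10.9, 12.3 and 13.1 CPM in Fl/Fl 4-OHT. The groups did not overlap, and the fold was 1.91 (0.94 ± 0.15, adjusted p = 0.00104, edgeR). Rfx3, the RFX factor best known for ciliary genes, was at 51.3, 60.9, 42.2, 54.0 and 57.7 CPM against 38.5, 43.9, 43.2, 38.9 and 39.3 CPM. It was lower after Trrap deletion (-0.37 ± 0.10, adjusted p = 0.0137, edgeR), although the Fl/+ library of mouse 26 lay within the Fl/Fl range. In Fl/+ untreated it was at 33.4, 47.4, 36.3, 51.3 and 57.0 CPM, below the treated library in 5 of 5 mice (0.24 ± 0.16 after 4-OHT, adjusted p = 0.331, edgeR). With the mouse as a replicate block Rfx3 did not pass after 4-OHT either (0.26 ± 0.10, adjusted p = 0.0848, edgeR). The Fl/Fl 4-OHT values lay within the untreated range (-0.13 ± 0.14, adjusted p = 0.511, edgeR).

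Rfx4, an RFX factor of the neural lineage, was at 350, 739, 409, 515 and 347 CPM in Fl/+ 4-OHT and 404, 452, 472, 281 and 498 CPM in Fl/Fl 4-OHT. The ranges overlapped and mouse 24 was far above the rest (-0.15 ± 0.22, adjusted p = 0.64, edgeR). Leaving out single libraries moved this value between -0.26 and 0.06, the latter without the Fl/+ 4-OHT library of mouse 24. Foxj1, the switch for motile cilia, was at 35.3, 26.9, 31.1, 61.0 and 40.5 CPM in Fl/+ untreated, 50.3, 70.8, 91.1, 50.5 and 37.7 CPM in Fl/+ 4-OHT and 94.0, 78.1, 74.8, 67.9 and 94.4 CPM in Fl/Fl 4-OHT. It did not pass after Trrap deletion (0.46 ± 0.21, adjusted p = 0.117, edgeR) or after 4-OHT (0.63 ± 0.26, adjusted p = 0.138, edgeR), and was higher in Fl/Fl 4-OHT than in Fl/+ untreated (1.09 ± 0.20, adjusted p = 0.00227, edgeR). Without the Fl/+ 4-OHT library of mouse 26, its highest in that group, the log2 fold change after Trrap deletion was 0.65 and passed.

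Ccdc39 and Ccdc40 together form the ruler that spaces dynein arms along motile axonemes. Ccdc39 was higher after Trrap deletion (0.63 ± 0.16, adjusted p = 0.011, edgeR), at a mean of 5.38 CPM in Fl/+ 4-OHT and 8.19 CPM in Fl/Fl 4-OHT. Ccdc40 had a log2 fold change of -0.60 ± 0.28 at 2.66 and 1.74 CPM and did not pass (adjusted p = 0.124, edgeR).

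**Figure D3:**
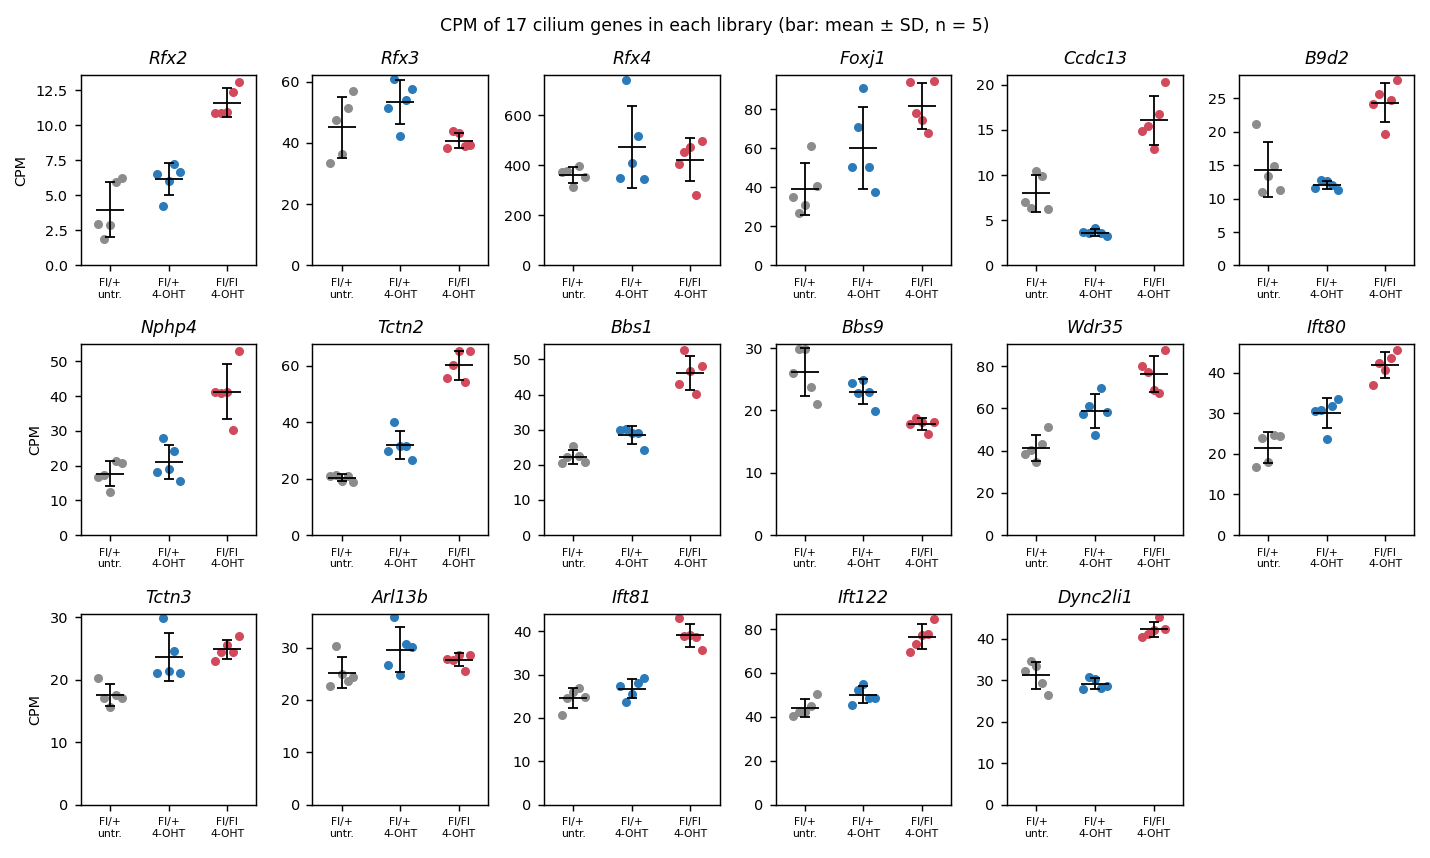
CPM (vertical axes from 0) of 17 members in the 15 libraries, with points for libraries and bars for the mean and SD of n = 5 per group. Tctn2 and Bbs1 rise from group to group, Ccdc13 is lowest in Fl/+ 4-OHT, Bbs9 is lowest in Fl/Fl 4-OHT, and the 3 groups of Rfx4 and Arl13b overlap.

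On log2(CPM + 0.5), the two-sided exact permutation test of 5 against 5 libraries gave 0.00794, the smallest p it allows, for 11 of these 17 members after Trrap deletion, those whose groups do not overlap. It is given as a description for the reason above.

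After 4-OHT in Fl/+ cells, 6 members were higher and 1 was lower by edgeR's test over 14821 genes, of which 7.34% were higher and 6.45% were lower. The higher members were Tctn2, Wdr35, Ift80, Tctn3, Ift172 and Bbs1, and the lower one was Ccdc13. The members' median was 0.14 (log2), beside -0.01 for all genes tested. With the mouse as a replicate block, since both groups came from the same mice, 10 members were higher and 3 were lower: Cep290, Rfx2, Ift140 and Ttc21b joined the higher ones and Bbs4 and Ift74 the lower ones. In that fit the shares of all genes grew too, to 13.8% higher and 11.9% lower. Without the block, leaving out any 1 library gave 1 to 4 higher members, of which only Tctn2 was called every time, and Ccdc13 stayed lower in each such fit. Those fits called 1271 to 2522 genes in all, against 2044. Of the 47 members, 11 were higher in all 5 mice after treatment and 4 were lower in all 5, beside 17.8% of all genes in each direction. In the same comparison 4 of 7 oligodendrocyte lineage markers were higher (median over the 7 of 1.49 on the log2 scale). Their sum, mostly Olig1 and Olig2, lay between 3209 and 3883 CPM in Fl/+ untreated and 2867 and 3844 CPM in Fl/+ 4-OHT. Mbp lay between 4.64 and 44.7 CPM in Fl/+ untreated, 48.1 and 282 CPM in Fl/+ 4-OHT and 81.0 and 1013 CPM in Fl/Fl 4-OHT. In Fl/Fl 4-OHT against Fl/+ untreated 5 of the 7 were higher and 1 was lower, beside 15.7% and 15.1% of all genes. After Trrap deletion none passed in edgeR and 1 was higher in DESeq2. The part of this lineage in the differences of the cilium genes was not tested.

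Ccdc13 was 0.456 times its untreated level after 4-OHT (-1.13 ± 0.19, adjusted p = 0.00345, edgeR), lower in 5 of 5 mice and with no overlap between groups. Because Trrap deletion was measured against those same Fl/+ 4-OHT libraries, its 4.45-fold difference and this one share them. Against the untreated libraries, Fl/Fl 4-OHT was 2.02-fold higher (1.02 ± 0.19, adjusted p = 0.00261, edgeR).

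Wdr35, Ift80 and Tctn3 were each higher in 5 of 5 mice. Wdr35 was at 38.5, 40.1, 34.5, 43.1 and 51.0 CPM in Fl/+ untreated, overlapping the treated libraries listed above (0.51 ± 0.12, adjusted p = 0.0217, edgeR). Ift80, a subunit of the IFT-B periphery, was at 16.7, 24.0, 17.9, 24.7 and 24.4 CPM before and 30.5, 30.8, 23.7, 31.8 and 33.5 CPM after treatment. Only the treated library of mouse 26 fell within the untreated range (0.48 ± 0.14, adjusted p = 0.0468, edgeR), and the Fl/Fl 4-OHT libraries were higher again at 37.0, 42.3, 40.6, 43.7 and 45.6 CPM. Tctn3 was at 20.3, 17.1, 15.7, 17.5 and 17.1 CPM before and 21.1, 29.9, 21.4, 24.6 and 21.0 CPM after treatment. These did not overlap (0.43 ± 0.13, adjusted p = 0.046, edgeR), and the Fl/Fl 4-OHT values of 23.0, 24.4, 25.6, 24.5 and 27.0 CPM lay in the same range as Fl/+ 4-OHT. Rfx2 had a log2 fold change of 0.62 ± 0.32 after 4-OHT and passed only with the replicate block (0.73, adjusted p = 0.0339, edgeR).

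Fl/Fl 4-OHT against Fl/+ untreated combined both steps. In it 24 members were higher and 3, Bbs9, Ift46 and Ift74, were lower, beside 15.7% and 15.1% of the 15032 genes tested. The members' median was 0.42 (log2) and that of all genes 0.00. Of the 22 members that were higher after Trrap deletion, 19 were also higher here, and B9d1, Ccdc39 and Ttc8 did not pass. Cep290, Foxj1 and Tmem67 passed as higher in this comparison and, without the replicate block, in neither of the others. The mean CPM increased from Fl/+ untreated through Fl/+ 4-OHT to Fl/Fl 4-OHT in 25 members, decreased in that order in 3, was lowest in Fl/+ 4-OHT in 12, and was highest there in 7. In all, 16 members passed in none of the 3 comparisons, among them both ciliary membrane genes, Ift20, Dync2h1 and Rfx4. With the replicate block, 3 of the 16 passed after 4-OHT, Ift140 (adjusted p = 0.0253) and Ttc21b (adjusted p = 0.0376) as higher and Bbs4 (adjusted p = 0.0298, edgeR) as lower, and so did Cep290 as higher (adjusted p = 0.0406, edgeR), which left 13. Without both Fl/Fl 29 and Fl/Fl 39, 20 of the 24 were still called, in a fit that called 2829 genes in all against 4620.

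Per kilobase of exon, the members covered a wide range of levels. Rfx4 was the highest in every group, at 76.7 ± 6.78 CPM per kb (SD, n = 5) in Fl/+ untreated. Ift20 followed at 21.1 ± 3.39 and Ift74 at 19.2 ± 1.87, and these 2 did not differ beyond their spread. The median over the 47 members was 4.21 CPM per kb in Fl/+ untreated, 4.58 in Fl/+ 4-OHT and 6.58 in Fl/Fl 4-OHT. IFT-B had the highest class median of the classes with 5 or more genes, 11.3 CPM per kb in Fl/+ untreated, beside 2.68 for the transition zone, 4.18 for the BBSome and 4.26 for IFT-A. In the transition zone the median was 6.53 in Fl/Fl 4-OHT. Rfx2 was among the lowest at 0.545 ± 0.269 in Fl/+ untreated and 1.59 ± 0.14 in Fl/Fl 4-OHT. Ccdc40 was the lowest at 0.40, 0.442 and 0.288 CPM per kb in the 3 groups.

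**Figure D4:**
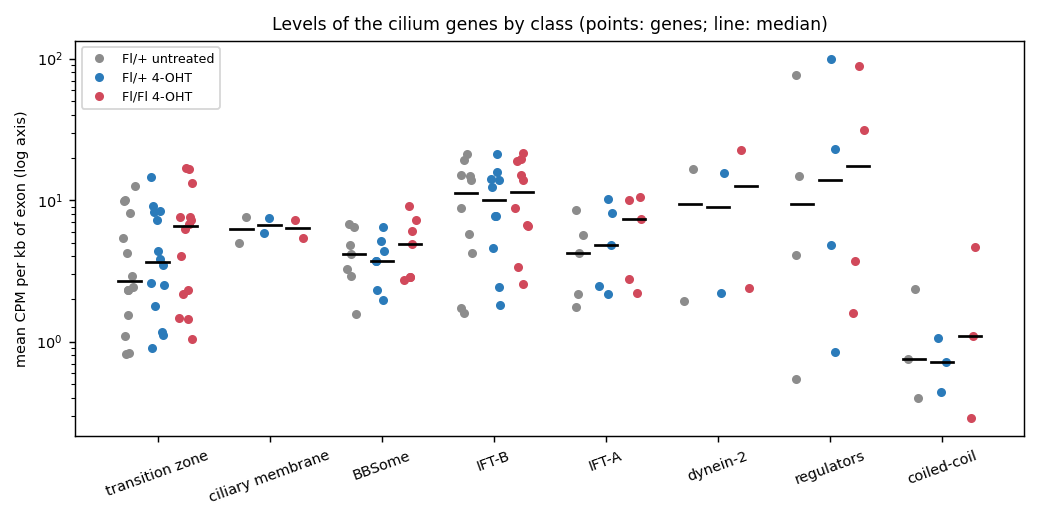
Mean level of each member in CPM per kilobase of exon (log axis) by class and group, with a line at the median of each class. Rfx4 is the highest point in each group, and the transition zone median is 2.68 in Fl/+ untreated, 3.66 in Fl/+ 4-OHT and 6.53 in Fl/Fl 4-OHT.

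The members were also sorted by what their promoter window held, and no difference between these sets was tested. Of the 6 with an X-box, 4 were higher (Tctn1, Tctn2, B9d2 and Bbs1), with a median log2 fold change of 0.68, and Ahi1 and Ift57 were at 0.20 and 0.19. Of the 17 with a core motif and no X-box, 10 were higher and 1, Rfx3, was lower, with a median of 0.40. Of the 18 with neither, 4 were higher and 1, Bbs9, was lower, with a median of 0.08. For the GC box, 9 of 25 members with it and 9 of 16 without it were higher. Outside the members, the share of genes higher after Trrap deletion was 28.1% with an X-box and 17.3% without, 19.9% with the core motif and 17.02% without, and 16.4% with a GC box and 19.7% without. The remaining 6 members, without a window, were Tmem67, Ift80, Ift81, Ift122, Dync2li1 and Foxj1. The members' changes were known when the list was made.

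**Figure D5:**
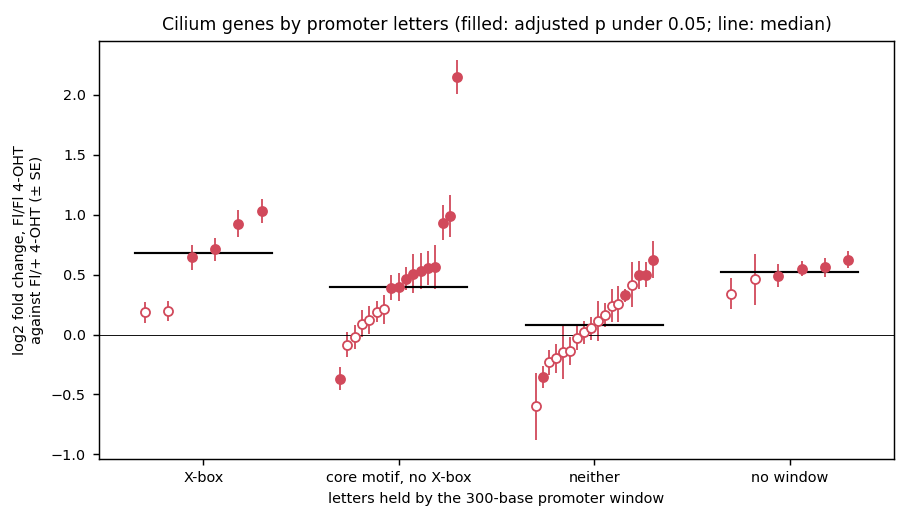
Log2 fold change after Trrap deletion (± SE) of the 47 members, grouped by what the 300-base promoter window held, with lines at the group medians and filled points past an adjusted p of 0.05. The medians are 0.68 with an X-box, 0.40 with a core motif only, 0.08 with neither and 0.52 for the 6 members without a window.

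A further 68 cilium genes were listed from general knowledge of the organelle, with earlier results of these data known. Of these 62 were tested after Trrap deletion, and 18 were higher (29.0%) and 4 were lower (6.45%), beside 16.8% and 15% of all genes, with a median of 0.11 (log2). Without both Fl/Fl 29 and Fl/Fl 39 only 8 were higher, in a fit that called 3066 genes in all against 4773, and in DESeq2 8 were lower. Among 7 other IFT genes 4 were higher, led by Ift22 (0.69 ± 0.09) and Traf3ip1 (0.50 ± 0.09). Among 6 BBSome partners and chaperones 3 were higher, led by the chaperonin-like Bbs10 (0.46 ± 0.14) and the GTPase Arl6 (0.44 ± 0.12). Among 11 other transition zone genes 3 were higher, led by Invs (0.52 ± 0.12).

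Of the kinesin-2 and further dynein-2 genes, 2 of 7 were higher. Kif17, the homodimeric kinesin-2 motor, was at 2.13, 2.9995, 3.22, 3.31 and 2.17 CPM in Fl/+ untreated, 6.89, 4.91, 4.94, 8.81 and 6.88 CPM in Fl/+ 4-OHT and 9.48, 11.9, 13.2, 16.4 and 14.5 CPM in Fl/Fl 4-OHT. The 3 groups did not overlap, and Kif17 was higher after Trrap deletion (1.03 ± 0.19, adjusted p = 0.00284) and after 4-OHT (1.23 ± 0.22, adjusted p = 0.00486, edgeR). The genes of the heterotrimeric kinesin-2, Kif3a, Kif3b and Kifap3, had log2 fold changes of 0.05, -0.01 and 0.01 after Trrap deletion and did not pass. Wdr60, a dynein-2 intermediate chain, was higher (0.42 ± 0.11).

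Of the 12 genes of the motile axoneme 8 were tested and 3 were higher, Rsph1, Dnai1 and Dnai2. Rsph1, a radial spoke head protein, went from 2.13, 1.74, 1.38, 2.95 and 2.01 CPM to 7.52, 4.86, 4.52, 8.58 and 9.202 CPM (1.77 ± 0.26, adjusted p = 0.000715, edgeR), with no overlap. The dynein arm genes Dnai1 (1.09 ± 0.29) and Dnai2 (0.85 ± 0.24), the latter named after its value was seen, were higher as well, at 1.42 to 3.28 CPM against 2.71 to 6.59 CPM and at 6.33 to 9.59 CPM against 9.57 to 24.9 CPM. Mcidas and Gmnc, which start the multiciliated cell program, had a mean of at most 0.0406 CPM in each group and were not tested, and a count of 0 in a library allows at most 0.0932 to 0.119 CPM.

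Among the basal body genes, Cep41 (0.69 ± 0.17) was higher and Ccp110, which caps the mother centriole and must leave for a cilium to grow, was lower (-0.48 ± 0.11, adjusted p = 0.00812, edgeR). It was higher after 4-OHT (0.75 ± 0.17, adjusted p = 0.0154, edgeR), and both values rest on the same Fl/+ 4-OHT libraries, at 29.8 to 46.2 CPM. The Fl/Fl 4-OHT libraries, at 24.7 to 29.9 CPM, lay within the untreated range of 18.5 to 31.9 CPM (0.26 ± 0.15, adjusted p = 0.202, edgeR). Cep83, Rfx7 and Pkd2 were the other lower genes of the 62, and Cep83 and Pkd2 are named after their values were seen. Rfx7 was at 124, 116, 95.3, 108 and 122 CPM in Fl/+ 4-OHT and 73.1, 83.4, 78.1, 64.6 and 67.2 CPM in Fl/Fl 4-OHT, without overlap (-0.61 ± 0.09, adjusted p = 0.000935, edgeR). It was higher after 4-OHT in 5 of 5 mice, which did not pass in the main fit and passed with the replicate block (0.36, adjusted p = 0.0156, edgeR). The Fl/Fl 4-OHT libraries of Rfx7 overlapped the untreated range of 74.8 to 109 CPM (-0.26 ± 0.11, adjusted p = 0.0972, edgeR). Of 9 membrane trafficking genes 2 were higher, Pde6d (0.34 ± 0.10) and Rab23 (0.28 ± 0.05). After 4-OHT, 4 of the 62 tested were higher (6.45%) and 3 were lower (4.84%), beside 7.34% and 6.45% of all genes. Over the alternative fits, 3 to 12 were higher and 0 to 5 were lower after 4-OHT. With the replicate block the shares of all genes were 13.8% and 11.9%. In Fl/Fl 4-OHT against Fl/+ untreated 16 of the 62 were higher (25.8%) and 3 were lower (4.84%), beside 15.7% and 15.1% of all genes.

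Of 6 genes that take the cilium apart, 3 were lower after Trrap deletion, beside 15% of all genes. They were the mitotic kinases Plk1 (-0.97 ± 0.22, adjusted p = 0.00714), Aurka (-0.77 ± 0.18, adjusted p = 0.00751) and Nek2 (-0.68 ± 0.21, adjusted p = 0.0307, edgeR). These kinases also drive the cell cycle, and Nek2 is named after its value was seen. Plk1 was at 76.7, 95.3, 69.4, 97.7 and 91.8 CPM in Fl/+ 4-OHT and 50.1, 44.6, 29.7, 27.0 and 66.4 CPM in Fl/Fl 4-OHT, with no overlap. Against Fl/+ untreated, where Plk1 lay between 34.9 and 103 CPM, none of the 6 passed in Fl/Fl 4-OHT in edgeR or in DESeq2 or had an unadjusted p under 0.05 in edgeR. The deacetylase gene Hdac6 had a log2 fold change of 0.12 after Trrap deletion.

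Cell cycle markers differed between the same libraries. Of Mki67, Top2a, Cdk1, Ccnb1 and Ccna2, 4 were lower after Trrap deletion, beside 15% of all genes. Mki67 was lower by most (-1.35), and Cdk1 did not pass (-0.49, adjusted p = 0.0809, edgeR). DESeq2 called all 5 lower. In Fl/Fl 4-OHT against Fl/+ untreated 1 of the 5 was lower in edgeR, Mki67 (-0.86 ± 0.30, adjusted p = 0.0494), and 2 were in DESeq2. Their sum lay between 435 and 1574 CPM in Fl/+ untreated, 846 and 1462 CPM in Fl/+ 4-OHT and 356 and 803 CPM in Fl/Fl 4-OHT. The Fl/Fl range did not reach the Fl/+ 4-OHT range, and their part in the differences of the cilium genes was not tested. After 4-OHT no marker of the 5 passed in edgeR or in DESeq2 or had an unadjusted p under 0.05 in edgeR, and their log2 fold changes were 0.25 to 0.50. With the replicate block Mki67 (0.56, adjusted p = 0.0224) and Top2a (0.59, adjusted p = 0.0228, edgeR) were higher.

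Markers of ependymal cells, the multiciliated cells next to this niche, were measured as well. Tmem212 had no count in any library, and Mia had at most 2 counts. Ccdc153 lay between 0.119 and 0.971 CPM in Fl/+ 4-OHT and 0.451 and 2.07 CPM in Fl/Fl 4-OHT, and Dynlrb2 between 0.541 and 1.803 CPM and 1.34 and 3.54 CPM. In Fl/+ untreated, Ccdc153 was at most 0.616 CPM and Dynlrb2 lay between 2.02 and 3.42 CPM. The 7 ependymal markers summed to between 16.3 and 26.2 CPM in Fl/+ untreated, 12.1 and 20.9 CPM in Fl/+ 4-OHT and 20.2 and 30.8 CPM in Fl/Fl 4-OHT, mostly from Pltp and Rarres2, which other cells express. After Trrap deletion the 5 tested had log2 fold changes of 0.52 to 1.27. None passed in edgeR, 4 had an unadjusted p under 0.05, and 2 were higher in DESeq2. In Fl/Fl 4-OHT against Fl/+ untreated 2 of the 5 were higher, Ccdc153 and Rarres2, beside 15.7% of all genes. After 4-OHT 1 of the 4 ependymal markers tested was higher and 1 was lower, beside 7.34% and 6.45% of all genes. DESeq2 called 1 higher and 2 lower after 4-OHT. The part of these cells in the differences of the cilium genes was not tested.

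Markers of astrocytes and neurons moved with the groups as well. Of 6 astrocyte markers 1 was higher and 3 were lower after 4-OHT, in edgeR and in DESeq2, and likewise in Fl/Fl 4-OHT against Fl/+ untreated, while 1 was higher after Trrap deletion. Gfap, an intermediate filament of astrocytes and adult stem cells, lay between 14.5 and 108 CPM in Fl/+ untreated, 63.7 and 1279 CPM in Fl/+ 4-OHT and 231 and 2264 CPM in Fl/Fl 4-OHT, a wide spread within each group (3.25 ± 0.85 after 4-OHT, adjusted p = 0.0283, edgeR). The glutamate transporter gene Slc1a3 lay between 2572 and 3922 CPM, 1618 and 2348 CPM, and 2077 and 2683 CPM in the same order (-0.70 ± 0.15 after 4-OHT, adjusted p = 0.0113, edgeR). The 6 summed to between 4487 and 6266, 3810 and 5503, and 3902 and 6939 CPM. The 6 neuronal markers summed to between 832 and 1101 CPM in Fl/+ untreated, 815 and 999 CPM in Fl/+ 4-OHT and 555 and 806 CPM in Fl/Fl 4-OHT, which overlapped neither. The sum of the 6 came mostly from Map2, at 739 to 870 CPM in Fl/+ 4-OHT and 512 to 782 CPM in Fl/Fl 4-OHT, which overlapped. Of these 6, 2 were lower after Trrap deletion and 5 were lower in Fl/Fl 4-OHT against Fl/+ untreated, in edgeR and in DESeq2, and after 4-OHT none passed in edgeR, 2 had an unadjusted p under 0.05 and DESeq2 called 1 lower. Over all genes in edgeR, 7.34% were higher and 6.45% were lower after 4-OHT. The shares were 16.8% and 15% after Trrap deletion and 15.7% and 15.1% in Fl/Fl 4-OHT against Fl/+ untreated. The part of the astrocyte and neuronal markers in the differences of the cilium genes was not tested.

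In the Hedgehog pathway, which runs through the cilium, 1 of 10 genes was higher and 1 was lower after Trrap deletion, beside 16.8% and 15% of all genes. Gli1, a direct target of the pathway, was at 0.237, 0.317, 0.277, 0.381 and 0.176 CPM in Fl/+ 4-OHT and 2.55, 2.72, 3.70, 1.86 and 2.60 CPM in Fl/Fl 4-OHT, a low level in all (3.27 ± 0.27, adjusted p = 4.56e-05, edgeR). Gpr161, a ciliary receptor that holds the pathway down, was at 43.8, 31.1, 42.0, 36.7 and 42.7 CPM against 19.8, 19.8, 18.1, 18.9 and 19.6 CPM. Both were without overlap between groups (Gpr161: -1.01 ± 0.10, adjusted p = 0.000103, edgeR). Ptch1, the other common target, had a log2 fold change of -0.29 and did not pass (adjusted p = 0.0918, edgeR), and Smo was at 0.10, Gli2 at 0.15 and Gli3 at -0.45, none of which passed.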

How the data were processed

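The authors sequenced TruSeq Stranded mRNA libraries of total RNA, made reads with bcl2fastq 1.8.4, mapped them with STAR 2.5.4b to GRCm38 with Ensembl 92, and deposited raw counts per gene of uniquely mapped reads, made with featureCounts 1.5.0 in stranded mode. Reads carried no molecular identifiers, so limits from counts (3 counts for a 0) cover counting error only. Dose and schedule of 4-OHT are described differently in the sources used here, and no dose is given.

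Gene IDs were joined to symbols of GENCODE vM21 (53620 of 53801). The main test was edgeR 4.0.16 (R 4.3.3), quasi-likelihood, with TMM scaling and filterByExpr at 10 counts, fitted on the 10 libraries of each comparison, with Benjamini-Hochberg adjustment over all genes tested and a threshold of 0.05. CPM were scaled over all 15 libraries and divided by exon length where genes are compared. Each library is a culture of 1 mouse, and edgeR's p-values weigh a difference against the spread between these cultures. The main 4-OHT fit left out the pairing by mouse, which only the fits with the replicate block used. Deviations of untreated and treated libraries correlated by 0.156 to 0.626 within the 5 mice and by -0.549 to 0.339 between mice (15435 genes), and the mouse pairs them.

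Alternatives were DESeq2 1.42.0, its size factors, no scaling beyond library size, no filter or a stricter filter, dispersion over all libraries, sex as a covariate, the mouse as a block and each library left out. The sex covariate used the labels, with Fl/Fl 39 as female although its counts go against that label. Removing GC and length trends, and leaving out both Fl/Fl 29 and 39, were added after seeing the data. Members and lists were chosen with earlier results of these data known. Members with values by library are the 4 regulators, the 6 largest rises and falls after Trrap deletion and the 4 largest after 4-OHT past the threshold with a mean of at least 1 CPM, and the member of each class with the largest change. Other lists give up to 2 genes per class past the threshold, and further genes of those lists were named after their values were seen. Promoters are those of up to 8 members past the threshold, by size of change, that hold an X-box or core motif. Some listed genes are not reported here by name.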

Additional observations from a re-analysis of the deposited data

Results flagged for a closer look

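Bbs1 in Fl/+ 4-OHT was 24.2 CPM in the library of mouse 36, below the other 4 libraries of its group by more of the group's range than Dixon's 95% critical value for 5 samples allows. It was the only flag in 51 groups of 5 (17 members in 3 groups), and chance flags about 1 in 20 groups. The same library held Xist beside Ddx3y. Without it Bbs1 stayed higher after Trrap deletion.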

How the results depend on the processing

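Of 342 counts and medians recomputed, 300 kept within 1.5 times the main count or within 1 SD of the main median, and of 969 recomputed values of the 17 members described by library, 934 kept their side of the threshold and no called value changed sign. After Trrap deletion every count of members stayed within 1.5 times 22 and 2, including 28 higher members with GC and length trends removed. That fit called 5220 of 15018 genes in all, against 4773 of 15036 in the main fit. Without both Fl/Fl 29 and 39, 3066 of 15347 genes were called, 17 members were higher and Wdr35 lost its call at 0.36. There the other cilium genes called higher numbered 8, and those called lower numbered 8 in DESeq2 and 7 with GC and length trends removed. After 4-OHT the members called higher numbered 2 with no filter and 10 with the replicate block. Those called lower numbered 2 in DESeq2, 2 with dispersion over all libraries, 3 with sex as a covariate, 3 with the block and 4 with the block and GC and length trends removed. Other cilium genes called higher after 4-OHT numbered 7 in DESeq2, 8 by library size alone, 8 with sex, 10 with the block and 12 with the block and trends removed, and those called lower 5, 1 and 0 in DESeq2, by library size alone and with no filter, and 5 with the block and trends removed. In Fl/Fl 4-OHT against Fl/+ untreated, members called lower numbered 1 by library size alone and 1 with no filter. Other cilium genes called lower there numbered 5 in DESeq2, 5 with dispersion over all libraries and 1 without both Fl/Fl 29 and 39, and their median was 0.31 by library size alone, where the median of all genes was 0.09. Over left-out libraries, members called higher after 4-OHT ranged from 1 (without Fl/+ 4-OHT 35) to 4, other genes called lower from 0 (without Fl/+ untreated 35 or Fl/+ 4-OHT 19, 24, 26 or 35) to 3, and members called lower in Fl/Fl 4-OHT against Fl/+ untreated from 1 (without Fl/+ untreated 24 or 26 or Fl/Fl 28 or 29) to 3. Foxj1 passed after 4-OHT without Fl/+ untreated 35 (0.84), and Rfx4 passed in Fl/Fl 4-OHT against Fl/+ untreated without Fl/Fl 37 (0.35). Of the 10 left-out fits after 4-OHT, Bbs1 lost its call in 8 (at 0.33 to 0.37), Tctn3 in 8 (0.34 to 0.48), Ift80 in 7 (0.40 to 0.52) and Wdr35 in 2 (0.45 to 0.48). Bbs1, Tctn3 and Ift80 also lost it with no filter, and Tctn3 with DESeq2 size factors. The paired fit with the replicate block moved the call of Rfx2 (0.73) and of no other of the 17. The cause of these changes was not tested. Genes at low counts are limited by depth.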

Other observations

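The X-box was also held by 121 tested genes outside the 47 members. After Trrap deletion 34 of them were higher (28.1%) and 10 were lower (8.26%), with a median log2 fold change of 0.17, beside 17.3% higher and 15.7% lower among 10859 genes whose window lacked it. After 4-OHT 4 of 119 were higher (3.36%) and 8 were lower (6.72%), beside 7.56% and 6.61% of those without it. These are counts of genes, which are not independent of each other, and they were not tested.

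Endothelial markers summed to between 13.1 and 25.4 CPM in Fl/+ untreated, 21.3 and 63.5 CPM in Fl/+ 4-OHT and 21.99 and 48.1 CPM in Fl/Fl 4-OHT, and 1 of the 2 tested was higher after 4-OHT in edgeR's test.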
